A study of Mus musculus with 41 samples.

Results

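The comparison described here is of ribosome footprints in primary mouse embryonic fibroblasts (MEFs) that lost Hbs1l against those of control MEFs. Its members are the 3 libraries labelled as Hbs1l mutant MEF footprints and the 3 control libraries labelled as belonging to the same batch, batch 3, 6 of the 41 libraries of the series. All 22438 genes with a footprint count were considered, and 11984 of them had enough counts to be tested. The whole series holds 30 footprint and 11 RNA libraries from mouse embryos, cerebella and MEFs, and asks how cells respond when pathways that monitor translation are lost.

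Control MEFs carried Tg(CAG-Cre/Esr1) and were n-Tr20 B6J/B6J, the C57BL/6J form of a tRNA gene used in the brain. Mutant MEFs shared both and were Hbs1l fl/-, so that 1 Hbs1l allele was already deleted in every cell and the other was deleted by the drug, while the control cells had no floxed Hbs1l allele. The Cre is driven by the ubiquitous CAG promoter and is activated by 4-hydroxytamoxifen (4-OHT). Cells were isolated from embryos at E13.0, and both genotypes received 1 μM 4-OHT for 48 hr, starting 2 days after isolation. They were then reseeded and collected 48 hr later, at about 80% confluence, and each library came from 2 dishes of cells of 1 embryo. The strain is labelled C57BL/6, and the mutants are called Hbs1l-/- MEFs below. Per the methods of the study, the Hbs1l alleles were made in C57BL/6N. The substrain background may therefore differ between genotypes, and its part in the changes below was not tested.

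HBS1L is a GTPase that acts with PELO, its partner, to split ribosomes that have stalled on an mRNA, most of all those that reached the end of a broken mRNA or that sit in its untranslated tail. The freed ribosomal subunits are recycled, and the mRNA is handed to decay enzymes such as the Ski complex and the exosome. Ribosome profiling sequences the stretches of mRNA shielded by ribosomes, so the number of footprints on a coding sequence follows both the abundance of the mRNA and how heavily it is translated.

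Hbs1l itself, listed as ENSMUSG00000019977.16, spans chromosome 10 from 21295979 to 21368898 on the plus strand (GRCm38). Its footprints were 2.59, 1.68 and 1.51 CPM (counts per 1000000 counts of the library, scaled with edgeR's TMM factors) in Hbs1l-/- replicates 1, 2 and 3, and 35.3, 39.5 and 32.6 CPM in control replicates 1, 2 and 3. All values below are given in this order, and a bare number in brackets is the log2 fold change of Hbs1l-/- over control, with its standard error after ± where given. The groups did not overlap, and the log2 fold change was -4.15 (standard error 0.18), a decrease of 17.7-fold (adjusted p = 1.65e-08, quasi-likelihood test of edgeR, Benjamini-Hochberg adjustment). The deletion removes exon 5, and the count is made over the whole gene, including the first 4 exons that full-length Hbs1l shares with the shorter isoform II, so the remaining footprints cannot be assigned to an isoform. Pelo, on chromosome 13 from 115088355 to 115090186, had 33.4, 30.5 and 30.7 CPM in Hbs1l-/- and 34.1, 36.2 and 28.1 CPM in control libraries. These ranges overlapped, and its log2 fold change of -0.06 did not pass the test (adjusted p = 0.721).

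Libraries of Hbs1l-/- cells held between 5922807 and 14347869 counts and controls between 11236276 and 13614532, with 10.1% to 11.8% of the counts on the 10 most abundant genes. Histone genes, which were left out of the test, took 0.802% to 0.906% of the counts in Hbs1l-/- libraries and 0.441% to 0.566% in controls. The 4 Y-linked genes Ddx3y, Eif2s3y, Uty and Kdm5d together had 4 to 21 counts in the 3 Hbs1l-/- libraries and in control replicates 1 and 2, but 2365 counts in control replicate 3, and the embryos were not sexed. Counts of called genes are therefore also given without that library. Leaving out each library was planned, and printing this one beside the counts was decided after seeing the data. All 10 fibroblast markers, among them Col1a1, Col1a2, Dcn and Thy1, were measured in both genotypes. Of the markers of other cell types, those of macrophages were higher and those of skeletal muscle lower in Hbs1l-/- libraries, and their values are given with the gene groups they move with. In such bulk samples, fewer cells of a type and less RNA per cell cannot be told apart.

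Footprints of 4083 genes changed in Hbs1l-/- MEFs (34.1% of those tested), with 2081 higher (17.4%) and 2002 lower (16.7%). At least a 2-fold change was seen for 582 of them (4.86% of those tested), 301 higher (2.51%) and 281 lower (2.34%). The 6 libraries did not overlap between genotypes for 46.4% of the tested genes. The median log2 fold change over all tested genes was -0.0069 (SD 0.52). Without control replicate 3, 4078 genes were called, 2086 higher and 1992 lower.

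The largest increases were almost all in genes of the interferon response, the antiviral program that cells switch on when they sense foreign nucleic acid or secreted interferon. Of the 15 largest increases among called genes with a mean of at least 5 CPM and no overlap between groups, 14 are on the list of interferon-response genes. Usp18, which removes ISG15 from proteins and dampens interferon signalling, had 31.5, 40.9 and 21.1 CPM against 1.39, 1.14 and 1.697 CPM in controls, a log2 fold change of 4.44 ± 0.27. Isg15, the ubiquitin-like modifier itself, had 90.6, 143 and 60.98 CPM against 6.77, 4.19 and 11.8 CPM in controls (3.69 ± 0.31, adjusted p = 2.94e-06). Every Hbs1l-/- library exceeded every control library for both genes, and among Hbs1l-/- libraries replicate 3 was the lowest.

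Rtp4, a chaperone with antiviral activity, rose from 0.868, 0.534 and 1.34 CPM in controls to 18.1, 23.97 and 11.1 CPM in Hbs1l-/- libraries (4.25), and all such pairs of values below run from control to mutant. For Ifit1, which binds viral RNA caps, the values were 54.7, 70.2 and 28.5 CPM against 3.91, 2.06 and 7.504 CPM (3.51), and for Irf7, a transcription factor that amplifies interferon production, 13.9, 16.1 and 10.5 CPM against 0.695, 0.762 and 1.79 CPM (3.63). In each of these genes control replicate 3 was the highest control and Hbs1l-/- replicate 3 the lowest mutant, and the groups remained apart. The others on the list were Oasl2 (3.81), Ifi44 (3.71), Xaf1 (3.29), Parp14 (3.21), Parp9 (3.05), Gbp3 (3.01), Oasl1 (2.86), Igtp (2.85) and Irgm2 (2.82). Igtp and Irgm2 overlap in the annotation, so the split of their counts is uncertain. The single gene among the 15 outside that list was Cxcl5, a chemokine that attracts neutrophils, with 26.01, 19.4 and 13.1 CPM against 2.17, 0.839 and 2.14 CPM (3.54).

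**Figure D1:**
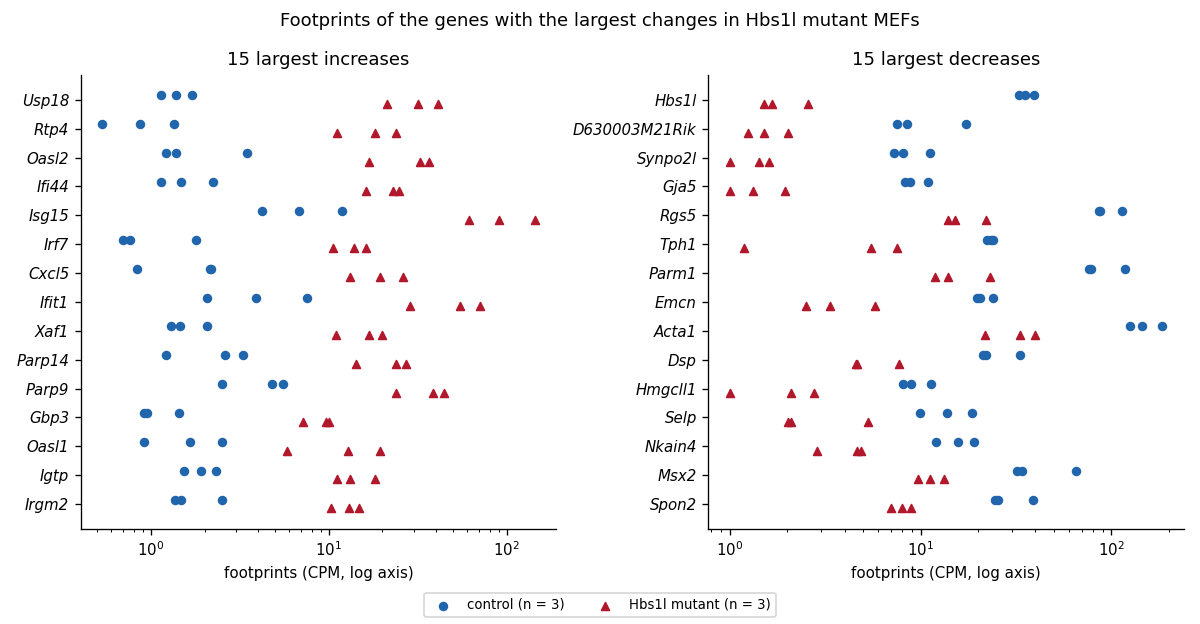
Footprints (CPM, log axis) of the 15 genes with the largest increase (left) and the 15 with the largest decrease (right) in each of the 3 control (blue circles) and 3 Hbs1l-/- libraries (red triangles). In all 30 genes the red and blue points are apart, as the rule for naming them required, and Hbs1l itself heads the decreases with 32.6 to 39.5 CPM in controls and 1.51 to 2.59 CPM in Hbs1l-/- libraries.

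Many genes of this program carry in their promoters a short element, the interferon-stimulated response element (ISRE), through which interferon switches them on. Its core, GAAANNGAAA, or TTTCNNTTTC on the other strand, was searched in the 250 bases before the start of RefSeq genes (GRCm38.p6). Of 73 listed interferon-response genes 54 matched a RefSeq promoter, and 24 of their 62 promoters held the core (38.7%), against 978 of all 32851 promoters (2.98%). The core was found for 24 of the 54 matched genes, and whether it was commoner in genes that rose was not tested. Among the listed genes that rose, 17 of 42 with a promoter had it. The sequences below are the promoters of 3 of these genes around the first core, written 5′ to 3′ along the strand of the gene, with every match in the printed stretch in capitals. Isg15 has 3 overlapping matches, which run together, Ifit1 has 2 and Igtp 1. They lie at chr4:156200867-156200916 (minus strand), chr19:34640765-34640814 (plus strand) and chr11:58199502-58199551 (plus strand), and the first cores end 68, 94 and 24 bases before the start of the gene.
Isg15: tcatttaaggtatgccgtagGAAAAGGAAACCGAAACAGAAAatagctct
Ifit1: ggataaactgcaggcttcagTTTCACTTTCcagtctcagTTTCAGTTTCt
Igtp: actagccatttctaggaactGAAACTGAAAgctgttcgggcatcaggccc
The core was also found before B2m, ending 129 bases from its start, at chr2:122147528-122147577 (plus strand), and it is shown because B2m was among the listed genes that did not pass the test in footprints.
B2m: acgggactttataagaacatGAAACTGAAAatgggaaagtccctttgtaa
A match describes the letters in this window and not a bound site.

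Of the 73 interferon-response genes, 59 were tested and 53 of them rose, 47 by at least 2-fold, while 1 fell and 5 did not pass. Over all tested genes 17.4% rose, 2.51% by at least 2-fold, and 16.7% fell. Their median log2 fold change was 2.47, beside -0.0069 over all tested genes, and 55 of the 59 did not overlap between groups (46.4% of all tested genes). The summed footprints of the list were 3342, 3643 and 2646 CPM in Hbs1l-/- and 1545, 1356 and 1623 CPM in control libraries. Among the 46 members with at least 1 CPM in controls, 41 rose and the median was 2.03. The remaining 14 were too low to be tested, at most 4.05 CPM in any library, and 13 of them had a higher mean in Hbs1l-/- cells. With control replicate 3 left out, more members entered the test, and 59 of 65 changed, all higher. Low members could pass the filter through the Hbs1l-/- libraries alone, so this count is a description.

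Of the receptors that sense RNA in the cytoplasm, Ifih1 (MDA5) had 53.8, 54.1 and 39.4 CPM against 8.42, 7.32 and 10.9 CPM (2.47 ± 0.16) and Ddx58 (RIG-I) 117, 119.5 and 95.5 CPM against 43.7, 37.96 and 51.1 CPM (1.32 ± 0.11). The transcription factors that carry the signal of the interferon receptor followed, with Stat2 at 53.97, 61.8 and 43.6 CPM against 11.03, 11.1 and 16.97 CPM (2.02) and Irf9 at 45.9, 56.3 and 46.7 CPM against 8.25, 4.42 and 9.56 CPM (2.75). None of these 4 genes overlapped between groups. Eif2ak2 (PKR), a kinase that halts translation when it binds double-stranded RNA, rose from 31.5, 26.1 and 30.1 to 60.6, 64.7 and 47.7 CPM (0.97). Rnf213 and Helz2, large proteins that interferon induces, were named because their adjusted p values were, with that of Atm, the lowest of the increases. Rnf213 had 581, 667 and 411 CPM against 80.2, 68.5 and 93.5 CPM (2.78, adjusted p = 1.93e-07) and Helz2 79.98, 90.8 and 69.3 CPM against 22.4, 19.9 and 18.9 CPM (1.96).

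Tap1 and B2m act in antigen presentation, which interferon also induces. Tap1, which pumps peptides into the endoplasmic reticulum, rose from 28.8, 31.3 and 30.5 to 46.6, 57.5 and 38.04 CPM (0.63). B2m, the light chain of class I molecules, had 768, 684 and 667 CPM against 709, 696 and 655 CPM, with overlapping groups and a log2 fold change of 0.04 (adjusted p = 0.676). Ifi47 was the listed gene that fell, from 11.9, 13.1 and 14.1 to 9.37, 11.1 and 7.47 CPM (-0.52, adjusted p = 0.022), and it passed the test in 12 of 19 alternative settings of the analysis. Members of the Ifit, Oas, Gbp and Tgtp families have near-identical copies, so the division of reads among them is uncertain.

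Of 36 chemokines, cytokines and their regulators 27 were tested, of which 12 rose and 4 fell, where 17.4% of all tested genes rose and 16.7% fell (median 0.25, 13 and 4 without control replicate 3, 7 rising without Hbs1l-/- replicate 1). Il1rl1, the receptor of interleukin 33, was the most abundant that rose, with 645, 497 and 622 CPM against 122, 87.8 and 152 CPM (2.29 ± 0.15). Cxcl10, which attracts T cells and is itself induced by interferon, had 23.9, 30.3 and 22.4 CPM against 3.82, 2.97 and 4.198 CPM (2.79 ± 0.17). Ccl5 had 6.01, 6.54 and 3.64 CPM against 1.22, 0.686 and 1.79 CPM (2.13), and both are on the interferon list as well. Ccl2, which attracts monocytes, rose from 124, 96.1 and 141 to 223, 234 and 169 CPM (0.79). Those that fell were Cxcl12, a homing factor of stem cells, from 253, 225 and 193 to 96.1, 90.5 and 122 CPM (-1.12). Ptgs2, the inducible prostaglandin synthase, fell from 930.2, 1131 and 917 to 469, 450.0 and 646 CPM (-0.93), Tnfaip3 (-0.92), an inhibitor of NF-κB, and Lif (-0.43, passing in 13 of 19 alternatives). Il6, an inflammatory cytokine, had overlapping groups with 3.92, 5.195 and 2.58 CPM against 5.64, 5.03 and 6.79 CPM and did not pass (adjusted p = 0.066).

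Macrophage markers moved with these genes. Of 12 tested, 10 changed, all higher (median 0.82), where 17.4% of all tested genes rose, and their summed footprints were 310.3, 363 and 261 CPM in Hbs1l-/- and 166, 136 and 193 CPM in control libraries. In the fit without control replicate 3, 10 were again higher. None of the defining markers was at 0. Ptprc (CD45) had 8.95, 16.3 and 8.53 CPM against 5.297, 3.73 and 5.63 CPM (1.15), Csf1r 48.03, 60.3 and 44.9 CPM against 21.5, 18.2 and 26.8 CPM (1.19) and Adgre1 (F4/80) 27.4, 31.7 and 18.7 CPM against 11.4, 7.699 and 14.1 CPM (1.22). Mrc1, the mannose receptor, rose from 5.904, 4.73 and 8.84 to 22.3, 23.5 and 19.4 CPM (1.75), and Lyz2 from 62.6, 52.1 and 64.2 to 99.4, 91.3 and 75.8 CPM (0.58). Hbs1l-/- replicate 2 was the highest library for Ptprc, Csf1r, Adgre1 and Mrc1, and no gene of these 5 overlapped between groups. The part of these cells in the interferon and chemokine results was not tested.

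Genes of cell division rose nearly throughout. Of 50 mitosis genes 48 rose and 1 fell (median 0.68), where 17.4% of all tested genes rose and 16.7% fell, with summed footprints of 6535, 6090 and 6145 CPM in Hbs1l-/- and 3871, 3363 and 4267 CPM in control libraries. When control replicate 3 was left out, 49 changed, all higher. Cenpf, a kinetochore protein, had 147, 132 and 143 CPM against 66.8, 63.2 and 69.3 CPM (1.08 ± 0.07). Mki67, the antigen used to count cycling cells, had 388, 326 and 357 CPM against 168, 146 and 199 CPM (1.07 ± 0.10). Cdc25b, the phosphatase that starts mitosis, rose from 9.55, 8.004 and 9.65 to 21.4, 18.9 and 16.6 CPM (1.07). Spc24, of the complex that holds microtubules, rose from 12.6, 11.2 and 12.3 to 27.7, 28.7 and 19.4 CPM (1.06). Smaller changes were measured for Cdk1, the mitotic kinase, with 295, 291 and 270.1 CPM against 214, 187 and 225 CPM (0.45), and for its cyclin Ccnb1 (0.58). Pttg1, which guards the separation of chromatids, was the member that fell (-0.28, adjusted p = 0.042), and it passed in 4 of 19 alternatives. The other named members did not overlap between groups.

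DNA replication genes moved alongside, with 36 of 46 tested members higher and 1 lower (17.4% and 16.7% over all tested genes), with a median of 0.51, and 38 of 47 higher without control replicate 3. Pola1, the catalytic subunit of the polymerase that primes synthesis, had 93.1, 88.8 and 96.6 CPM against 46.9, 41.5 and 54.1 CPM (0.97). Lig1, which joins Okazaki fragments, had 77.8, 70.05 and 62.8 CPM against 36.3, 37.7 and 35.5 CPM (0.95). Mcm5, of the replicative helicase, rose from 117, 112 and 127 to 219, 241 and 194 CPM (0.87). Cdt1, which loads that helicase, rose from 33.4, 33.8 and 31.98 to 61.5, 71.2 and 57.3 CPM (0.93). Pcna, the sliding clamp, rose from 56.3, 51.8 and 64.6 to 78.5, 75.4 and 71.02 CPM (0.38). E2f1, a transcription factor of the S phase, was the member that fell, from 22.9, 30.5 and 21.6 to 17.5, 17.8 and 17.6 CPM (-0.51). All of these genes were apart between groups. The histone share of the libraries, given above, did not overlap between groups either, and histone genes were not tested.

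Promoters of mitosis genes often hold the cell cycle homology region (CHR), TTTGAA, or TTCAAA on the other strand, through which they are silenced in resting cells. In the 250 bases before the RefSeq start, 17 of 45 promoters of the 42 matched mitosis genes held these letters (37.8%), against 5252 of all 32851 (16.0%), and 15 of the 40 matched genes that rose had it. Shown around the first match, with every match in the stretch in capitals, are Cdk1 (chr10:69352958-69353003, minus strand) and Mki67 (chr7:135716470-135716515, minus strand), with the first match ending 65 and 110 bases before the start. Each of these promoters holds 2 matches, of which the stretch from Cdk1 shows 1.
Cdk1: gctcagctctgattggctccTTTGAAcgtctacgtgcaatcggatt
Mki67: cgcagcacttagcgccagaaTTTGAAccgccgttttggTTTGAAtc

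Of 68 genes of ribosome biogenesis 53 rose and 1 fell (17.4% and 16.7% over all tested genes), with a median of 0.39, none by 2-fold. Dkc1, the enzyme that makes pseudouridine in ribosomal RNA, had 114, 111 and 113 CPM against 63.5, 58.2 and 75.2 CPM (0.78). Heatr1, needed to process the small subunit, had 249, 240.0 and 242 CPM against 145, 146 and 155 CPM (0.71). Ncl, the abundant nucleolar protein nucleolin, rose from 1088, 1044 and 1183 to 1578, 1422 and 1617 CPM (0.48). Myc, which drives these genes, rose from 161, 156 and 167 to 186, 186 and 185 CPM (0.20, adjusted p = 0.022, passing in 16 of 19 alternatives). Every Hbs1l-/- library was above every control for these 4 genes. Nop10, a small partner of Dkc1, fell from 76.1, 76.9 and 66.6 to 46.1, 46.8 and 47.9 CPM (-0.64). Without control replicate 3, 52 members rose and 1 fell.

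**Figure D2:**
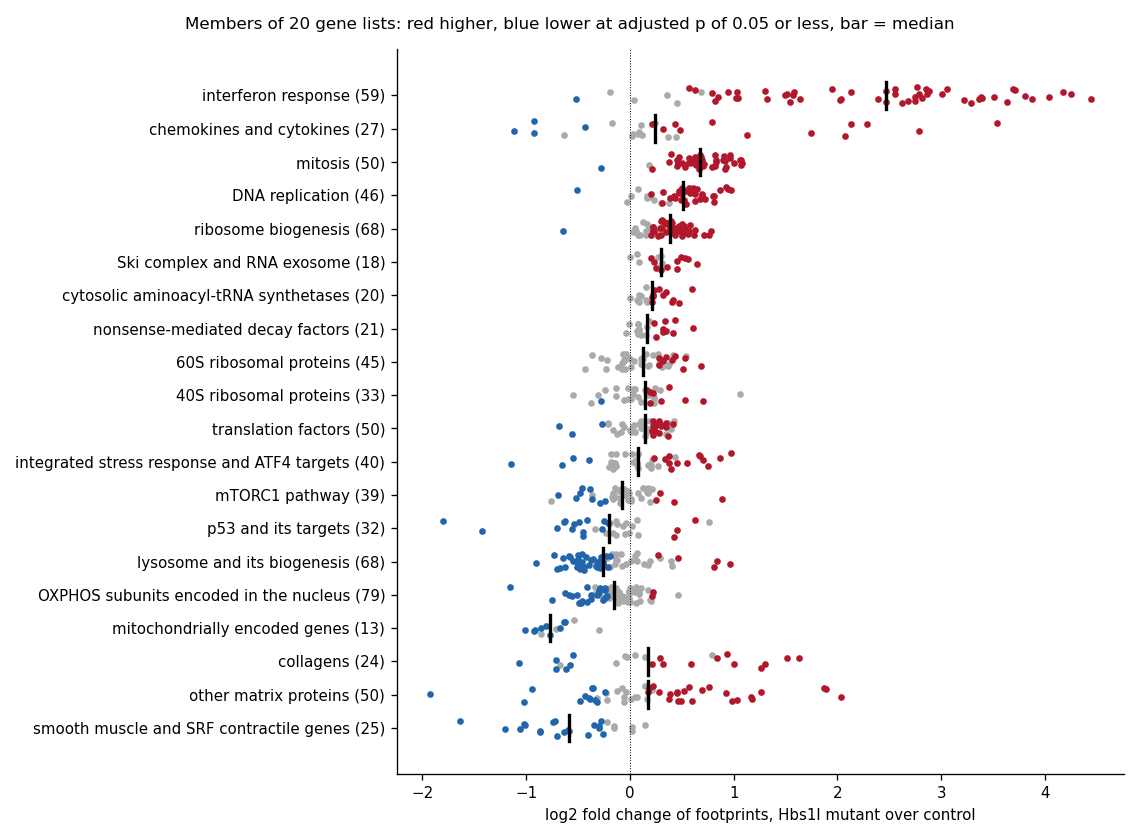
Log2 fold change of footprints (Hbs1l-/- over control) of every tested member of 20 gene lists, with the number tested in brackets. Red points were higher and blue points lower at an adjusted p of 0.05 or less, grey points did not pass, and the black bar is the list's median, which is highest for the interferon response (2.47) and lowest for mitochondrially encoded genes (-0.77).

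Of 45 tested proteins of the large (60S) subunit 9 changed, all higher (median 0.13), and of 33 of the small (40S) subunit 8 rose and 1 fell (median 0.15), where 17.4% of all tested genes rose and 16.7% fell. Rpl7 had 130.0, 160.2 and 134 CPM against 106, 99.7 and 114 CPM (0.41) and Rps18 116, 115 and 91.8 CPM against 77.1, 80.4 and 65.1 CPM (0.53), while Rps27l, a p53 target, was the protein that fell (-0.28, passing in 15 of 19 alternatives). With control replicate 3 left out, 8 large and 7 small subunit proteins rose, and the small subunit had 5 without any one of the Hbs1l-/- replicates and 1 without control replicate 1. Many ribosomal protein genes have processed copies in the genome, so their counts are uncertain.

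Of 50 translation factors 15 rose and 3 fell (median 0.15), where 17.4% of all tested genes rose and 16.7% fell. Eef2, which moves the ribosome along the mRNA, rose from 2675, 2836 and 2543 to 3490, 3478 and 3398 CPM (0.36). Eif3c, of the initiation factor eIF3, rose from 703, 654 and 733 to 882, 903 and 883 CPM (0.35). The 3 that fell were Eif4ebp2 (-0.68), an inhibitor of cap binding, Tpt1 (-0.56) and Eif4a2 (-0.27). Of 20 cytosolic aminoacyl-tRNA synthetases 12 changed, all higher (median 0.22), led by Vars, the valine enzyme, with 383, 405 and 371 CPM against 248, 274 and 240.5 CPM (0.60). In the fit without control replicate 3, 16 translation factors rose and 4 fell and 12 synthetases rose, and without control replicate 1, 9 translation factors rose.

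Factors that handle stalled and colliding ribosomes, HBS1L's own field, had calls in both directions. Of 31 tested 9 rose and 4 fell, Hbs1l among the latter (median -0.01), where 17.4% of all tested genes rose and 16.7% fell. Gtpbp1, a GTPase related to HBS1L, had 44.2, 47.4 and 40.9 CPM against 28.6, 32.5 and 28.7 CPM (0.55 ± 0.09). Gcn1, a sensor of collided ribosomes, had 309.9, 324 and 299 CPM against 239.6, 243 and 197 CPM (0.45). Ascc3, the helicase that pulls collided ribosomes apart, rose from 108, 110.4 and 119.5 to 161, 140.3 and 149.8 CPM (0.42). Increases were smaller for Zfp598, the ligase that marks such ribosomes (0.26), Abce1, which splits the subunits together with PELO (0.25), Nemf (0.23) and Ltn1 (0.19), which act on the unfinished chain. These 4 passed in 10, 15, 12 and 11 of 19 alternatives.

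The remaining factors that fell were Map3k20 (ZAK), the kinase that signals from collided ribosomes, with 128, 139 and 149 CPM against 189, 197 and 197 CPM (-0.49 ± 0.07). Rnf14, a ligase for trapped elongation factors, fell from 70.6, 74.01 and 71.4 to 54.2, 56.6 and 56.4 CPM (-0.37), and Rnf10 (-0.27, passing in 12 of 19 alternatives), a ligase for proteins of the small subunit. The number of the 31 that rose was 4 with DESeq2 and 5 with upper-quartile factors. It was 3 without control replicate 1, 5 without control replicate 2, 6 without control replicate 3 and 4 without Hbs1l-/- replicate 1 or 3. This number thus depends on the tool, the scaling and the libraries kept.

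Of 18 genes of the Ski complex and the RNA exosome 11 changed, all higher (median 0.30), where 17.4% of all tested genes rose. Dis3, the catalytic subunit of the exosome, had 129, 123 and 135 CPM against 80.1, 77.8 and 89.7 CPM (0.65). Exosc8, a core subunit, had 63.1, 70.2 and 64.9 CPM against 46.4, 36.3 and 51.2 CPM (0.56). Within the Ski complex, Skiv2l, the helicase, rose from 44.5, 46.3 and 38.4 to 58.7, 54.3 and 52.7 CPM (0.36). Ttc37 changed by 0.20 (adjusted p = 0.045, passing in 9 of 19 alternatives). Wdr61 had 99.6, 100.2 and 102 CPM against 90.8, 100.1 and 97.5 CPM and did not pass (adjusted p = 0.494). Of 21 factors of nonsense-mediated decay 9 changed, all higher (median 0.17), among them Upf1, the central helicase, with 259, 246 and 266 CPM against 206, 217 and 194 CPM (0.32), and Smg1, the kinase that acts on it, with 139, 154 and 144 CPM against 104, 108 and 115 CPM (0.42). Omitting control replicate 3 gave 10 higher for the Ski complex and exosome and 8 for decay factors, and the Ski complex and exosome had 6 without Hbs1l-/- replicate 1 and 7 without control replicate 1.

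Genes of the integrated stress response, which ATF4 turns on when initiation is slowed, had 13 of 40 higher and 3 lower (median 0.08), where 17.4% of all tested genes rose and 16.7% fell. Atf4 itself rose from 65.6, 56.4 and 67.7 to 80.1, 89.5 and 71.1 CPM (0.34, adjusted p = 0.015, passing in 16 of 19 alternatives). Cebpb, a partner transcription factor, rose from 57.3, 54.8 and 52.4 to 98.1, 97.9 and 73.4 CPM (0.71), and Mthfd1l and Aldh1l2, of mitochondrial folate metabolism, by 0.76 and 0.68. Asns, asparagine synthetase and a standard target of ATF4, had 401, 404 and 364 CPM against 327, 289 and 390.0 CPM and did not pass (adjusted p = 0.084). Nupr1, another stress gene, fell from 46.5, 39.6 and 38.5 to 19.4, 18.1 and 18.7 CPM (-1.14), and so did Gdf15 (-0.54), a stress cytokine, and Chac1 (-0.39), which degrades glutathione and passed in 10 of 19 alternatives. When control replicate 3 was left out, 15 rose and 2 fell and the median was 0.2. Of 39 genes of the mTORC1 pathway, which couples nutrients to protein synthesis, 4 rose and 8 fell (median -0.07), where 17.4% of all tested genes rose and 16.7% fell, and 2 rose without control replicate 1 or any one of the Hbs1l-/- replicates. Mtor had 91.9, 91.8 and 92.7 CPM against 78.2, 85.5 and 67.9 CPM (0.25, adjusted p = 0.033, passing in 11 of 19 alternatives), Deptor, an inhibitor of the kinase, rose by 0.89, and Rheb, its activator, was lower (-0.29, passing in 13).

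Targets of p53, the damage-induced tumour suppressor, fell more often than they rose. Of 32 tested 3 rose and 14 fell (17.4% and 16.7% over all tested genes), with a median of -0.20, with summed footprints of 3656, 3760 and 3888 CPM in Hbs1l-/- and 4564, 4594 and 4528 CPM in control libraries. Without control replicate 3 the counts were again 3 and 14. Cdkn1a (p21), the inhibitor of the cell cycle, had 634, 738 and 713 CPM against 906, 1020 and 921 CPM (-0.45 ± 0.07). Mdm2, the ligase that degrades p53, had 349, 325 and 404 CPM against 503, 512 and 498 CPM (-0.49 ± 0.08). Larger decreases were measured for the pro-apoptotic genes Perp, from 74.2, 108 and 63.4 to 21.7, 25.8 and 23.9 CPM (-1.80), and Pmaip1 (NOXA), from 75.1, 89.8 and 64.4 to 25.5, 24.8 and 34.4 CPM (-1.43), and for Ccng1 (-0.70). The 3 that rose were Tap1 (0.63), Ckap2 (0.45) and Sesn1 (0.42, passing in 6 of 19 alternatives), of which Tap1 is also on the interferon list and Ckap2 on the mitosis list. Trp53 itself had 245, 219.9 and 242 CPM against 226, 220.4 and 227 CPM and did not pass (adjusted p = 0.411). Atm, the kinase that signals double-strand breaks to p53, was on none of the lists and shared the lowest adjusted p of the increases, with 75.8, 77.6 and 83.5 CPM against 26.4, 25.9 and 29.7 CPM (1.53 ± 0.09, adjusted p = 1.93e-07).

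Of 68 tested lysosomal genes 37 fell, 5 rose and 26 did not pass (median -0.26), where 16.7% of all tested genes fell and 17.4% rose, and summed footprints were 10144, 10302 and 10561 CPM in Hbs1l-/- and 12817, 13389 and 12244 CPM in control libraries. With control replicate 3 left out, 39 fell and 5 rose. Ctsd, a major protease, had 363, 374 and 364 CPM against 586, 601 and 568 CPM (-0.67 ± 0.06). Lamp1, an abundant membrane protein, had 866, 888 and 1015 CPM against 1243, 1231 and 1161 CPM (-0.39). Atp6v0a1, of the proton pump, fell from 101, 112 and 89.1 to 63.6, 65.5 and 64.5 CPM (-0.64), and Ctsf by 0.91 on the log2 scale. The 5 that rose were Mitf, a transcription factor of the organelle's genes (0.96), the proteases Ctsk, Ctss and Ctsc (0.84, 0.81 and 0.47), which macrophages also express, and Arsb (0.27, passing in 7 of 19 alternatives). Tfeb, the main regulator of lysosome genes, had 6.502, 7.04 and 7.2 CPM against 5.297, 6.17 and 4.11 CPM and did not pass (adjusted p = 0.131).

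Of the 13 genes encoded by mitochondrial DNA, which are translated by the organelle's own ribosomes, 9 changed, all lower (median -0.77), where 16.7% of all tested genes fell. Their summed footprints were 4201, 2977 and 4138 CPM in Hbs1l-/- and 4909, 6165 and 7319 CPM in control libraries, which did not overlap, and controls ranged more widely than mutants. mt-Cytb, of complex III, had 1265, 857 and 1289 CPM against 1489, 1842 and 2124 CPM (-0.68 ± 0.14), mt-Co1, of cytochrome oxidase, 1216, 902 and 1104 CPM against 1291, 1764 and 1953 CPM (-0.64 ± 0.13) and mt-Nd4, of complex I, 179.7, 127 and 169 CPM against 241, 301 and 366 CPM (-0.92 ± 0.14). mt-Co3, mt-Co2 and mt-Atp6 had few footprints, at most 13.3 CPM in any of the 6 libraries, and mt-Co2 went from -0.63 to 0.02 with other controls. With the control libraries of the Upf2 pool in place of these, 6 of the 13 fell (median -0.44), and without control replicate 3, 8 fell (median -0.64).

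Of 79 tested subunits of oxidative phosphorylation encoded in the nucleus 27 fell and 2 rose (median -0.16), and the counts were again 27 and 2 without control replicate 3. Those that rose were 1 without Hbs1l-/- replicate 1 or control replicate 1 and 4 without control replicate 2. Cox6b1, of cytochrome oxidase, fell from 228, 251 and 224 to 168, 143 and 144 CPM (-0.63). Uqcrh, of complex III, fell from 74.7, 78.6 and 68.1 to 54.5, 44.1 and 50.5 CPM (-0.56). Ndufa7, of complex I, fell from 119, 129 and 108 to 49.7, 81.1 and 84.2 CPM (-0.75). Atp5a1, of ATP synthase, had 1163, 1160 and 1132 CPM against 977, 1006 and 971 CPM and Ndufs1, of complex I, 202, 196 and 198 CPM against 167, 174 and 174 CPM, and these were the 2 that rose (0.23 and 0.21). Mitochondrial ribosomal proteins, also encoded in the nucleus, had 10 of 76 higher and 10 lower (17.4% and 16.7% over all tested genes), and 5 and 4 without control replicate 1, with 4 higher without Hbs1l-/- replicate 1 and 6 without control replicate 2.

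Of 25 smooth muscle and contractile genes, which serum response factor (SRF) drives in stretched or contracting fibroblasts, 19 changed, all lower (median -0.59), where 16.7% of all tested genes fell, and 19 were lower also without control replicate 3. Acta2, smooth muscle actin, had 8746, 9173 and 9465 CPM against 14610, 16270 and 14240 CPM (-0.72 ± 0.06). Tagln, an actin-binding protein, had 3055, 3510 and 3674 CPM against 5087, 5750 and 4998 CPM (-0.63 ± 0.08). Actg2, a second smooth muscle actin, fell from 2543, 2816 and 2709 to 1024, 1137 and 1349 CPM (-1.20). Myl9, the regulatory light chain, fell from 1019, 1198 and 948 to 511, 514 and 537 CPM (-1.02). Cnn1, calponin, fell from 566, 633 and 585 to 274, 273 and 339.7 CPM (-1.01). The largest decrease on the list was in Ankrd1, a stretch-responsive nuclear protein, from 472, 543 and 427 to 119.6, 142 and 202 CPM (-1.63). Srf itself had 45.2, 48.9 and 38.2 CPM against 53.2, 52.6 and 51.6 CPM (-0.26, adjusted p = 0.047) and passed in 9 of 19 alternatives.

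The 15 largest decreases are given next, after Hbs1l. Acta1, skeletal muscle actin, fell from 144, 184 and 125 to 21.9, 33.02 and 39.8 CPM (-2.28). Synpo2l, a protein of the sarcomere, fell from 8.07, 11.3 and 7.24 to 1.61, 1.01 and 1.42 CPM (-2.65). Rgs5, a regulator of G proteins that marks pericytes, had 13.98, 15.1 and 21.96 CPM against 87.6, 114 and 85.8 CPM (-2.49 ± 0.15, adjusted p = 2.63e-07), Emcn, of the endothelial surface, 3.36, 2.51 and 5.78 CPM against 24.1, 20.4 and 19.8 CPM (-2.41) and Selp, the adhesion molecule P-selectin, 2.097, 2.01 and 5.33 CPM against 13.8, 18.7 and 9.91 CPM (-2.13). Gja5, a gap junction protein of arteries, fell by 2.61, Dsp, the desmosomal linker desmoplakin, by 2.26 and Msx2, a homeobox factor, by 1.95 on the log2 scale. The remaining ones were D630003M21Rik (-2.77), Tph1, the enzyme of serotonin synthesis (-2.48), Parm1 (-2.44), Hmgcll1 (-2.18), Nkain4 (-1.98) and Spon2 (-1.92). In all 15 the lowest control was above the highest Hbs1l-/- library.

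Of 11 skeletal muscle markers 7 were tested and all 7 fell (median -1.71). Low genes such as Myog could pass the filter through the controls alone, where they were higher, so this count is a description, and the 4 untested genes reached at most 1.46 CPM. With a mean of at least 5 CPM 3 were tested, all lower, and DESeq2 called 5. The summed footprints of the list were 15.5, 31.7 and 24.4 CPM in Hbs1l-/- and 55.8, 68.5 and 70.5 CPM in control libraries. Myh3, embryonic myosin, had 2.796, 2.35 and 3.47 CPM against 9.64, 11.7 and 7.41 CPM (-1.71), Ttn, titin, 1.68, 3.85 and 3.56 CPM against 5.99, 10.4 and 14.8 CPM (-1.87), and Myog, the transcription factor of muscle differentiation, 0.629, 0.503 and 0.267 CPM against 2.95, 4.802 and 1.16 CPM (-2.64). None of the 11 was at 0 in all libraries, and the 3 named genes did not overlap between groups. Of 7 tested endothelial markers 3 fell and 1, Erg, rose (median 0.02), where 17.4% of all tested genes rose and 16.7% fell. Erg was below 1 CPM in controls and could pass the filter through the Hbs1l-/- libraries alone, so its rise is a description. Among the 6 endothelial markers with at least 1 CPM in controls, 0 rose and 3 fell (median -0.32). Of 6 pericyte markers 2 fell and 1, Cspg4, rose (median -0.03). Cspg4 passed in 12 of 19 alternatives and not without control replicate 3, when 3 pericyte markers fell. Of 5 epithelial markers 2 fell and 1 rose. Among the 4 epithelial markers with at least 1 CPM in controls, 0 rose and 2 fell (median -0.79). The 1 that rose could likewise pass the filter through the Hbs1l-/- libraries alone. Of 8 neural markers 3 fell, of 5 adipocyte markers 2 rose and of 9 cartilage markers 2 rose and 1 fell. Without control replicate 3, 1 adipocyte and 1 cartilage marker rose, and the counts of increases were again 1 and 1 without control replicate 2 or Hbs1l-/- replicate 2. Erythroid genes were not tested, with 7 of 9 at 0 in all 6 libraries. The part of muscle and vessel cells in the lower contractile genes was not tested.

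**Figure D3:**
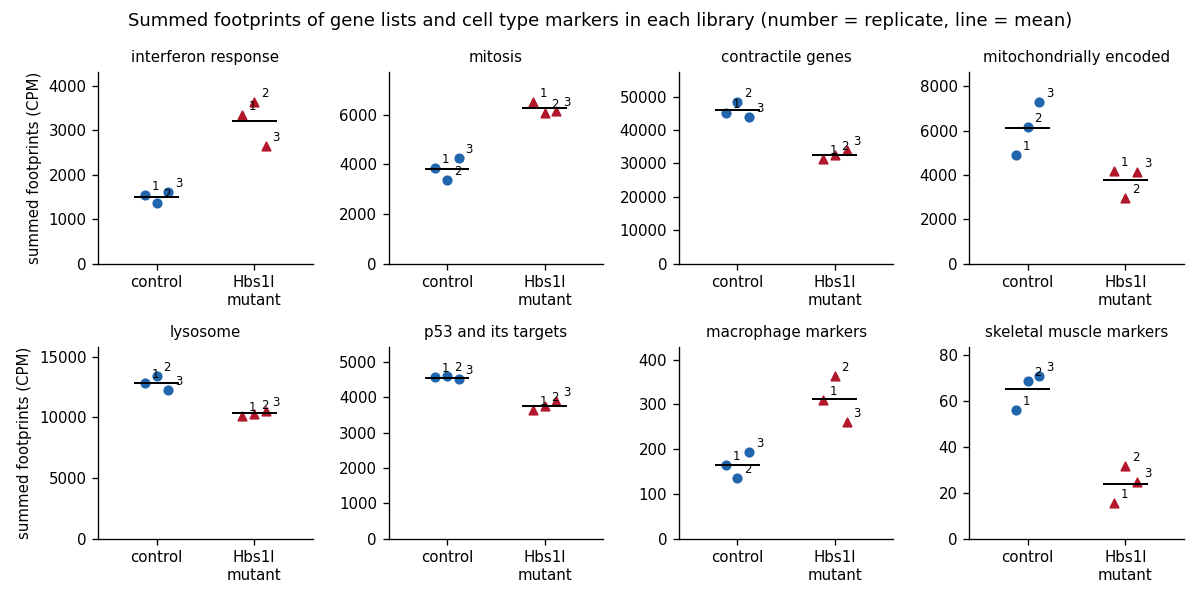
Summed footprints (CPM) of 6 gene lists and 2 sets of cell type markers in each of the 3 control (blue circles) and 3 Hbs1l-/- libraries (red triangles), with the replicate number beside each point and the mean as a line. In all 8 panels the groups are apart, with macrophage markers at 261 to 363 CPM against 136 to 193 CPM and skeletal muscle markers at 15.5 to 31.7 CPM against 55.8 to 70.5 CPM.

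Of 24 collagens 11 rose and 6 fell (median 0.18), where 17.4% of all tested genes rose and 16.7% fell. The 3 chains of collagen VI, a microfibril around cells, rose together, with Col6a1 at 903, 814 and 641 CPM against 329, 268 and 380.5 CPM (1.27), Col6a2 at 628, 589.7 and 452 CPM against 196, 149.5 and 239.8 CPM (1.51) and Col6a3 at 2052, 1897 and 1633 CPM against 779.8, 562 and 917 CPM (1.31). Col3a1, a fibrillar collagen of soft tissues, rose from 915, 839 and 938 to 1872, 1884 and 1397 CPM (0.94), and Col5a3, a minor fibril chain, had a log2 fold change of 1.63. Col4a1, of the basement membrane, fell from 3013, 3775 and 2680 to 1915, 2256 and 2176 CPM (-0.58). Col7a1, of anchoring fibrils, fell from 109, 134 and 103 to 48.03, 54.3 and 63.3 CPM (-1.07). All named collagens were apart between groups, and without control replicate 3, 9 rose and 7 fell.

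Of 50 other matrix proteins 24 rose and 12 fell (17.4% and 16.7% over all tested genes), with a median of 0.17 (22 and 13 without control replicate 3). Eln, elastin, had 452, 476 and 226 CPM against 176, 148 and 155 CPM (1.27). Lum, a proteoglycan of collagen fibrils, had 59.01, 40.4 and 34.2 CPM against 14.7, 11.5 and 10.2 CPM (1.89). Fn1, fibronectin, which links cells to the matrix, fell from 16610, 17980 and 15510 to 12330, 11840 and 12950 CPM (-0.43). Efemp1, a fibulin, fell from 316, 381 and 349 to 174, 168 and 176 CPM (-1.01). Of 35 enzymes that process collagen 8 rose and 10 fell (8 and 11 without control replicate 3, 6 falling without control replicate 1 or 2), Loxl3 (0.58) and Loxl2 (-0.94), which crosslink fibres, in opposite directions. All 10 fibroblast markers rose (median 0.68, 8 of 10 without control replicate 3), and Pdgfra, the receptor that marks mesenchymal cells, rose most, with 138, 117 and 81.9 CPM against 26.7, 16.5 and 29.2 CPM (2.23 ± 0.20).

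The study also sequenced RNA from MEFs of both genotypes, 3 libraries each, in batch 6 and with their own control libraries. Of 15257 genes tested in RNA 3527 changed (23.1%), 1935 higher (12.7%) and 1592 lower (10.4%). The count was 1820 without control replicate 2 and 2217 without Hbs1l-/- replicate 2, and the shares that follow were computed with all 6 libraries. Of the genes called in footprints 4062 were also tested in RNA, and 1928 of them were called there (47.5%), 1915 in the same direction and 13 in the opposite one. Of the genes called in RNA 3148 were tested in footprints, and 61.2% of them were called, beside 34.1% of all genes tested there. Whether RNA and footprints came from the same embryos is not given in the sources used here, and the Y-linked genes were again high in control replicate 3 alone.

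Interferon-response genes were higher in RNA too, with 51 of 59 tested called, all higher (median 2.32), where 12.7% of all genes tested in RNA were higher and 10.4% lower. RNA of Isg15 was 55.4, 79.4 and 38.8 CPM in Hbs1l-/- and 2.67, 3.09 and 4.397 CPM in control libraries (4.04, adjusted p = 2.93e-04). Contractile genes gave 16 lower and 1 higher of 25, and mitochondrially encoded genes 9 lower of 13. In RNA 29 of 50 mitosis genes and 32 of 68 ribosome biogenesis genes were called, all higher, and 11 of 68 lysosomal genes were lower and 5 higher, beside the 10.4% and 12.7% over all genes. Of 40 integrated stress response genes 16 were higher in RNA and 1 lower. Mki67 RNA was 46.8, 65.6 and 50.3 CPM against 30.6, 56.9 and 47.98 CPM (0.26, adjusted p = 0.389), and Ctsd RNA 767, 639 and 633 CPM against 798, 748 and 758 CPM (-0.18, adjusted p = 0.253), and neither passed. Whether the change differed between footprints and RNA was not tested. All 30 genes with the largest changes in footprints were called in RNA in the same direction.

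PELO is the partner of HBS1L, and 3 libraries of Pelo-/- MEFs (labelled CAG-Cre ER; Pelo cKO, and treated alike) were profiled in batch 4 with 3 controls. Their control libraries differed from the same-numbered controls used here by a chi-square per gene of 1.1 to 1.12, against 3.54 to 12.6 between libraries of 1 group, so the same control cultures stand in both comparisons and their effects are not independent. Of 12486 genes 5502 changed in Pelo-/- MEFs (44.1%), 2858 higher (22.9%) and 2644 lower (21.2%). The difference between the effects, tested over the 12 libraries, was called for 695 of 12526 genes (5.55%), with the Hbs1l effect the higher in 263 (2.1%) and the lower in 432 (3.45%). That fit counts the shared control cultures as separate libraries. With the controls of both pools summed per culture 2276 genes were called, and without control replicate 1 of this batch 384, so the count depends on how the controls enter.

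For interferon-response genes the median log2 fold change was 2.47 in Hbs1l-/- and 4.34 in Pelo-/- MEFs, and a difference was called for 49 of 59 genes, with the Hbs1l effect lower in each, as in 3.45% of all genes (56 lower and 1 higher with the controls summed, 37 lower without control replicate 1). Isg15 had 560.5, 449 and 687 CPM in Pelo-/- libraries and 8.098, 4.31 and 12.3 CPM in their controls (6.11), and the difference of effects was -2.43 ± 0.54 (SE, adjusted p = 0.017). For B2m the Pelo effect was 1.33 beside 0.04 for Hbs1l (difference -1.29 ± 0.09, adjusted p = 2.34e-06). Among chemokines and cytokines the Hbs1l effect was lower for 18 of 27, with Ccl2 at 0.79 beside 3.72 and Cxcl5 at 3.54 beside 6.97. Macrophage markers moved with these genes here as well. In Pelo-/- MEFs 12 of 12 were higher (median 1.84), where 22.9% of all tested genes rose. In Hbs1l-/- MEFs 10 of 12 of these markers were higher (median 0.82), where 17.4% of all tested genes rose. A lower Hbs1l effect was called for 3 of them, for 8 with the controls summed and for 1 without control replicate 1, and their part in the difference was not tested.

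**Figure D4:**
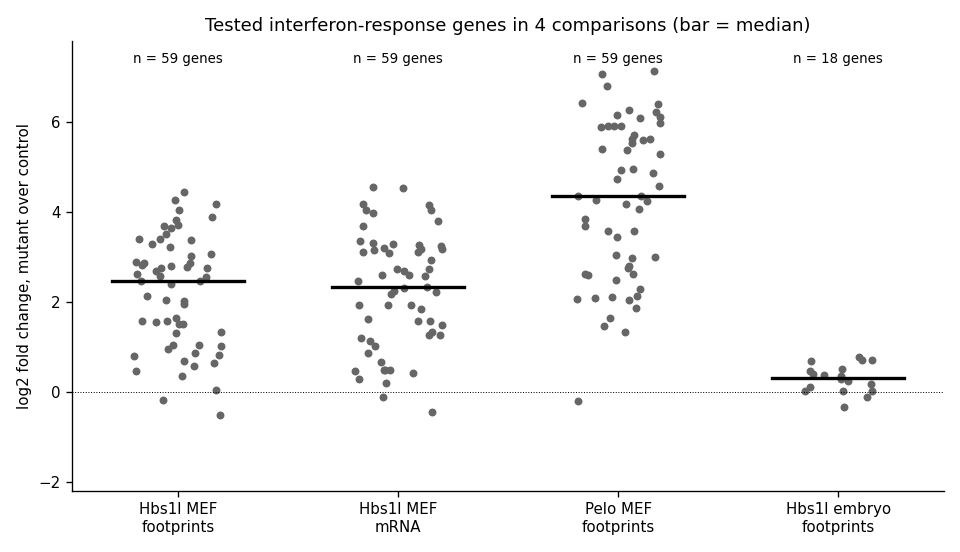
Log2 fold change (mutant over control) of interferon-response genes in Hbs1l-/- MEF footprints, Hbs1l-/- MEF RNA, Pelo-/- MEF footprints and Hbs1l-/- embryo footprints, with 1 point per gene tested and the median as a bar. The medians are 2.47, 2.32, 4.34 and 0.31, and the embryo comparison has 18 of the genes against 59 in the others.

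Mitosis genes had similar medians in the comparisons. In Pelo-/- MEFs 47 of 50 rose, where 22.9% of all tested genes rose (median 0.61 beside 0.68 for Hbs1l), and edgeR's quasi-likelihood test called a difference of effects for 0 of them, with 5 at an unadjusted p under 0.05, and DESeq2 called 0. With the controls summed, 5 were higher and 2 lower. For 46 DNA replication genes edgeR and DESeq2 called 0, with 5 at an unadjusted p under 0.05 in edgeR, and with the controls summed 1 was higher and 1 lower. Equal effects are not thereby shown. Mki67 had 1.07 and 1.02 (difference 0.04 ± 0.17, adjusted p = 0.935). Large-subunit proteins rose in 35 of 45 cases in Pelo-/- and 9 of 45 in Hbs1l-/- MEFs, beside 22.9% and 17.4% of all tested genes, with a lower Hbs1l effect called for 8 (3.45% over all genes), and for 23, with 2 higher, with the controls summed.

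Mitochondrially encoded genes went in opposite directions, with 7 of 13 higher in Pelo-/- MEFs (median 0.59, 22.9% of all tested genes higher) and 9 of 13 lower in Hbs1l-/- MEFs (median -0.77, 16.7% lower), and a lower Hbs1l effect, as in 3.45% of all genes, was called for 9 (all 13 with the controls summed). mt-Co1 had 3130, 2434 and 1964 CPM in Pelo-/- libraries and 1297, 1735 and 1946 CPM in their controls (0.59), and the difference of effects was -1.23 ± 0.26 (adjusted p = 0.012). Rgs5 and Emcn fell further in Pelo-/- MEFs (-4.01 and -4.49) than in Hbs1l-/- MEFs (-2.49 and -2.41), with differences of 1.52 and 2.08 (adjusted p = 0.029 and 0.013).

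Hbs1l-/- whole embryos at E8.5, in which the gene is absent from the start, were profiled in 3 libraries of 5 pooled embryos with 3 wild-type libraries of the same strain, C57BL/6NJ. Of 11416 genes tested there 214 changed (1.87%), 105 higher (0.92%) and 109 lower (0.955%), in libraries of 2634480 to 7298812 counts. Of the genes called in MEFs 3554 were tested in embryos and 68 were called (1.91%), 47 in the same direction. This is near the 1.87% of all genes tested in embryos. Of the genes called in embryos 152 were tested in MEFs and 44.7% were called, beside 34.1% of all genes tested there. The difference between the effects in MEFs and embryos was called for 974 of 13062 genes (7.46%), 426 higher (3.26%) and 548 lower (4.2%) in MEFs. With single MEF libraries left out it was called for 457 to 690 genes, the fewest without Hbs1l-/- replicate 1. Of the 59 interferon-response genes 18 had enough counts in embryos, and edgeR called 0 of them, with 3 at an unadjusted p under 0.05 (median 0.31), and the MEF effect was the higher for 7 of these 18 (9 with DESeq2). Listed genes with too few counts in embryos are not compared.

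The MEF effect was also the higher for 21 of 50 mitosis and 18 of 46 replication genes, and the lower for 23 of 65 lysosomal genes, beside 3.26% and 4.2% of all genes. Ctsd was 0.78 in embryos and -0.67 in MEFs (difference -1.47 ± 0.20, adjusted p = 6.15e-04). For p53 targets the effect in MEFs was lower in 6 of 28 genes, among them Pmaip1 (1.75 in embryos, -1.43 in MEFs) and Perp (0.43 and -1.80). Of 24 contractile genes 3 were lower in embryos (0.955% of all genes tested there), 19 of 25 were lower in MEFs (16.7%), and the MEF effect was the lower for 3 (4.2%). DESeq2 called the MEF effect lower for 6 of these 24 and higher for 1. Embryos and MEFs differ in tissue, strain, batch, depth and the time since the gene was lost, and these cannot be told apart.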

How the data were processed

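Ribosome footprints were analysed in 3 Hbs1l-/- and 3 control MEF libraries, with RNA, Pelo-/- MEF and Hbs1l-/- embryo libraries for comparison. Fragments of 15 to 34 nt were sequenced in pools of 6 libraries, and per the labels and the methods of the study the authors clipped adapters, removed ribosomal RNA with Bowtie2 2.2.3, aligned to mm10 with HISAT2 2.1.0 and deposited featureCounts counts over coding sequences, without normalization. The RNA values deposited are estimated counts from kallisto 0.42.4, and these were summed per gene and rounded to whole numbers here. Cycloheximide was in the lysis buffer.

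Counts were tested with edgeR 4.0.16 (R 4.3.3, limma 3.58.1) after TMM scaling and filtering with filterByExpr, by the quasi-likelihood test with Benjamini-Hochberg adjustment over all genes and a threshold of 0.05. The 100 histone genes were left out. Differences between effects were tested as contrasts of 4 groups in 1 fit. The fits were tested on simulated data. Symbols came from the deposited kallisto identifiers, positions from Gencode M21 (GRCm38), and promoters from RefSeq (GRCm38.p6).

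Text values are CPM with TMM factors, printed per library. Named genes were the 15 largest increases and decreases (mean of at least 5 CPM, groups apart), the 5 lowest p values per direction, up to 5 called members per list and direction, and defining members of each list. Some items are not reported here. The members and lists were chosen with earlier results of these data known. Alternatives were DESeq2 1.42.0, other scaling factors, other filters, histones kept, the replicate number as a block, thinning, control libraries of other pools, the Y-linked level as a covariate and each library left out. A further setting, without control replicate 3 and Y-linked genes, was added after seeing the data. It called the same number of genes as leaving out that library alone (4078). Tallies over the 19 alternatives and the checks of named genes and lists therefore count that fit again. Each MEF library came from 1 embryo, so its p-values measure the spread between embryos, and each E8.5 library from 5 pooled embryos.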

Additional observations from a re-analysis of the deposited data

Results flagged for a closer look

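The effects of Hbs1l and Pelo loss in MEFs differed for 695 genes (2276 with the shared controls summed), and those of Hbs1l loss in MEFs and in E8.5 embryos for 974 genes (457 to 690 with single MEF libraries left out), by contrasts of both effects in 1 fit with the quasi-likelihood test of edgeR. Of the genes with the largest increases in Hbs1l-/- MEFs, 14 had a smaller increase there than in Pelo-/- MEFs. The Hbs1l effect minus the Pelo effect was -2.35 (log2) for Usp18, -2.62 for Oasl2, -2.69 for Ifi44, -2.43 for Isg15, -2.26 for Irf7, -3.43 for Cxcl5 and -2.40 for Ifit1. It was -2.31 for Xaf1, -2.39 for Parp14, -1.89 for Parp9, -2.91 for Gbp3, -2.51 for Oasl1, -2.68 for Igtp and -2.12 for Irgm2. Both comparisons share control cultures.

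Among the largest decreases the Hbs1l effect was the weaker for Rgs5 (difference 1.52) and Emcn (2.08). For mitochondrially encoded genes the difference was -1.11 for mt-Nd1, -1.23 for mt-Co1, -2.22 for mt-Co2, -2.10 for mt-Atp6, -2.45 for mt-Co3, -1.22 for mt-Nd4 and -1.04 for mt-Cytb. Of these, mt-Co2, mt-Atp6 and mt-Co3 had few footprints, as given above. With the control libraries of the Upf2 pool their Hbs1l effects were 0.02, -0.13 and -0.4, and none passed, so these differences are uncertain.

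The effect in MEFs minus the effect in embryos was -3.23 for Rgs5, -2.65 for Parm1, -1.83 for Emcn, -2.55 for Dsp, -1.75 for Hmgcll1, -2.2 for Nkain4, -2.04 for Msx2 and -2.82 for Spon2. In embryos the log2 fold change was 0.73 for Rgs5, 0.18 for Parm1, 0.29 for Dsp and 0.90 for Spon2. For Emcn and Hmgcll1 the decrease in MEFs exceeded the difference, so their estimates in embryos were negative as well. The embryo libraries are shallower and of another strain, so tissue, strain and depth cannot be told apart.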

How the results depend on the processing

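The count of called genes was 4083 with the settings reported and 2913 to 4458 over the alternatives, the lowest without Hbs1l-/- replicate 1 and the highest with the controls of 3 pools summed. Upper-quartile factors moved the share of higher calls from 51% to 46.1%. Of the checks of named genes 5440 kept their direction and side of the threshold, 335 no longer passed, 20 newly passed and 4 changed direction, of which mt-Co2 was called in the report: mt-Co2 (-0.63 to 0.02) and mt-Atp8 (0.01) with the control libraries of the Upf2 pool, B2m (-0.02) without Hbs1l-/- replicate 1 and Pelo (0.02) without control replicate 2 (single omissions gave B2m -0.02 to 0.08 and Pelo -0.15 to 0.02), and the cause was not tested.

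Replicate numbers did not pair the libraries: deviations of same-numbered Hbs1l-/- and control libraries correlated at 0.0577, 0.0700 and 0.0364 over 9700 genes, though each Hbs1l-/- library correlated best with its own number. With the replicate number as a block 4043 footprint genes were called, 2815 in RNA, 803 for the difference from Pelo and 1188 for that from embryos.

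Leaving out single libraries gave 1820 to 2679 called genes in RNA, 384 to 667 for the difference from Pelo and 457 to 690 for the difference from embryos. For RNA, counts were 2217 without Hbs1l-/- replicate 2 and 1820 without control replicate 2. For Pelo they were 416 without Hbs1l-/- replicate 3 and 384 without control replicate 1. For embryos they were 457 and 472 without Hbs1l-/- replicates 1 and 2, and 533, 467 and 649 without control replicates 1, 2 and 3. Summing the controls of both pools gave 2276 genes for the Pelo difference. Of counts of list members, 661 stayed within 1.5-fold and 61 did not. The shallowest library, with 5922807 counts, limits what can be called in low genes, and thinning all to it left 3464 called.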

Other observations

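Of 19 heat shock genes 7 rose and 5 fell in Hbs1l-/- MEFs, where 17.4% of all tested genes rose and 16.7% fell. Hspb1 and Cryab, small heat shock proteins that bind actin and intermediate filaments, had 66.2, 64.5 and 73.95 CPM against 149, 166 and 138 CPM (-1.14) and 176, 182 and 185 CPM against 364, 397 and 324 CPM (-1.0). Hspa8, the constitutive Hsp70, rose from 244, 251 and 244 to 289.6, 333 and 333 CPM (0.37), and Hsph1, its nucleotide exchange factor, from 319, 314 and 321 to 464, 441 and 464 CPM (0.52). The mitochondrial chaperones Hspd1 and Hspa9 were higher by 0.35 and 0.28, while mitochondrially encoded genes were lower. Of 24 chaperones of the endoplasmic reticulum 7 changed, all lower (median -0.11, 4 without Hbs1l-/- replicate 2 and 3 without control replicate 1), among them Edem1 (-0.48) and Dnajb9 (-0.45), and Hspa5 (BiP), the main one, had 2631, 2484 and 2422 CPM against 2340, 2256 and 2406 CPM and did not pass (adjusted p = 0.184). Of 32 proteasome subunits 4 were called, 2 in each direction, and 1 without Hbs1l-/- replicate 1 or control replicate 1.

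Immediate early genes, which growth signals switch on within minutes, had 4 of 30 higher and 7 lower in footprints (17.4% and 16.7% over all tested genes), and 14 higher and 2 lower in RNA (12.7% and 10.4%). Fosl1 and Jun rose in footprints (0.52 and 0.41) and in RNA (0.65 and 0.97). Klf10, a repressor induced by TGF-β, rose in footprints, with 107, 105 and 108 CPM against 78.9, 78.5 and 78.2 CPM (0.45), but fell in RNA, with 8682, 7105 and 6055 CPM against 10050, 12130 and 13650 CPM (-0.71, adjusted p = 0.014). Its RNA level is out of proportion to its footprints, and the cause was not tested. It is 1 of 13 genes called in opposite directions, and the difference itself was not tested. Of 34 genes of cholesterol synthesis 9 rose and 2 fell (median 0.13), with 34.1% of all tested genes called. The counts were 11 and 1 without control replicate 3, and 5 rose without control replicate 1. Lbr, a reductase that also anchors chromatin, had 151, 141 and 146 CPM against 90.5, 78.7 and 90.2 CPM (0.76).

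Genes near Hbs1l, within 5 Mb on chromosome 10, were called in 17 of 40 tested cases, 7 higher and 10 lower (median -0.02), where 34.1% of all tested genes were called.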
